A study of Mus musculus with 5 samples.

Results

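The genes described here encode steroid dehydrogenases and aldo-keto reductases, 2 enzyme families that reduce or oxidise carbonyl and hydroxyl groups with NAD(H) or NADP(H). They were taken by name from the genes measured on the arrays: symbols that begin with Hsd3b, Hsd11b, Hsd17b, Srd5a, Akr1 or Akr7, without Hsd17b4, Hsd17b7, Hsd3b7 and Akr1d1. This gave 31 genes of 19938 measured under a single symbol, and each of the 31 was represented by 1 probe set. The arrays came from the livers of male mice of about 10 months on regular food. The 2 control samples were normal liver from Hdac3FL/+AlbCre+ mice, and the 3 others were liver tumours from Hdac3FL/-AlbCre+ mice, in which the floxed allele of Hdac3, a histone deacetylase, faces a null allele. The albumin promoter drove Cre recombinase in all 5 mice, and it is active in hepatocytes. Control hepatocytes therefore keep only their wild-type allele, and other cell types of the tumours keep the floxed one. Every null sample was tumour and every control was normal tissue, so genotype and tumour state cannot be told apart.

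In the liver these enzymes set the local level of active steroid hormone and clear steroids, and many also handle other carbonyl compounds. The 3β-hydroxysteroid dehydrogenases (3β-HSD) act on the A ring of the steroid nucleus, the 11β-HSD enzymes interconvert active and inactive glucocorticoid, and the 17β-HSD enzymes switch oestrogens and androgens between strong and weak forms. Several proteins with a 17β-HSD name work mainly on fatty acids or amino acids, or sit on lipid droplets. The aldo-keto reductases (AKR) include the AKR1C enzymes, which reduce steroid ketones, and the AKR1B enzymes, which reduce sugars and reactive aldehydes.

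Of the 31 genes, 8 fell and 1 rose in the tumours at a limma adjusted p under 0.05 (Benjamini-Hochberg over all 19938 genes), and 22 did not pass. Over all genes, 4.96% fell and 5.6% rose by the same test, against 25.8% and 3.23% of these genes. The median difference of tumour minus control was -0.50 log2 units over the 31 genes and -0.02 over all genes. With 1 array left out the median of the 31 ranged from -0.33 without tumour 3 to -0.79 without tumour 2. All 3 tumours lay below both controls for 17 of the 31, which is 54.8% of them against 23.1% of all genes, and above both controls for 5, which is 16.1% against 21.1%. With the array medians made equal, 9 of the 31 fell and 1 rose, and the share of risen genes among all calls went from 53.0% to 42.7%. Leaving out the dimmest 40% of all genes removed 9 of the 31 from the test. Of the members still tested, 9 fell and 1 rose, against 8.31% and 9.55% of all genes then tested. The 5 arrays limit the precision: the smallest two-sided p of an exact permutation test of 2 against 3 is 0.1, and each call rests on a spread estimate that limma pools over genes. Without control 1 or without control 2, Hsd3b5 kept its call and the other 8 called genes lost theirs.

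**Figure D1:**
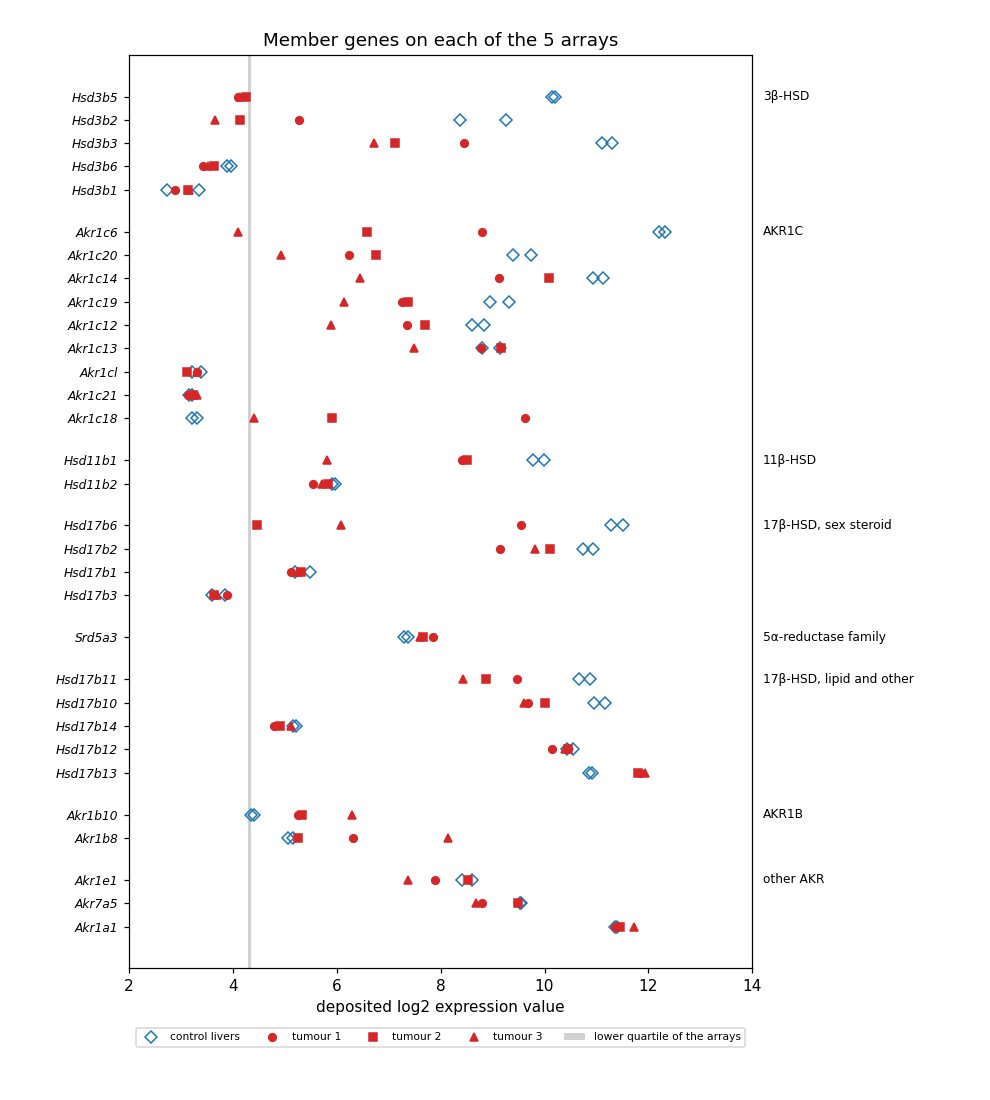
Deposited log2 expression value (horizontal axis) of each of the 31 genes, with the 2 control livers as open diamonds and the 3 tumours as filled symbols; the grey band spans the lower quartiles of the arrays. The 8 fallen genes, from Hsd3b5 to Hsd17b10, stand at control means of 8.82 or more, and 5 genes are to the left of the band in both groups.

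Array medians lay between 5.66 and 5.77 on the log2 scale, and lower quartiles between 4.29 and 4.35. A group mean under the mean lower quartile of that group's arrays (4.34 for the controls and 4.31 for the tumours) is called dim here, since it was not shown to be above background. Hdac3 itself was lower in the tumours, at 8.21 and 8.37 in the controls against 6.78, 6.57 and 6.65 (difference -1.62, limma adjusted p = 0.00298). This call too was lost without either control (adjusted p = 0.0505 and 0.0663). The hepatocyte markers Alb, Apoa1, Apob, Hnf4a and Tat did not pass the test, and Ttr, a sixth, fell by 0.72. Every one of them had a negative difference. Their summed intensity on the linear scale was 33980 to 34281 in the controls and 26414 to 30098 in the tumours. Of 8 macrophage markers, 6 rose and 0 fell, and their summed intensity on the linear scale went from 1034 to 1283 in the controls to 3827 to 6864 in the tumours, with Clec4f and Marco not passing. Summed intensities of the lymphocyte list were at most 197 in the controls and at least 528 in the tumours. Of its 5 members 1 rose, Ptprc by 2.52 (limma adjusted p = 0.0117). Cd3e, Cd3g, Cd79a and Nkg7 did not pass, and Cd79a differed by 0.03. For the cholangiocyte list the sums were at most 213 in the controls and at least 317 in the tumours. There 0 of 5 members passed (limma adjusted p under 0.05). Sums of the endothelial and stellate lists overlapped between the groups. Of 6 stellate markers 1 rose, Acta2 by 2.44 (limma adjusted p = 0.0102), and of 5 endothelial markers 0 passed. The calls of Ttr, Acta2 and the refitted macrophage markers Mpeg1, Cd68, Lyz2 and Adgre1 were lost without either control. No marker was listed at 0 on this scale. The part of these cells in the results below was not tested, and in whole tissue fewer cells of a type and less RNA per cell cannot be told apart.

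Of the 5 measured 3β-HSD genes, 3 fell, and these were the 3 that the control livers held at high levels. Hsd3b5, a NADPH-dependent 3-ketosteroid reductase that mouse liver makes mainly in males, read 10.14 and 10.21 in the controls, whereas tumours 1, 2 and 3 read 4.11, 4.25 and 4.14. The tumours were nearly equal to each other, all dim, and far below both controls. The difference was -6.01 log2 units (SE 0.12, 95% confidence interval -6.30 to -5.71; limma adjusted p = 4.51e-05), the largest fall among the 31 genes. With the tumours set to the lower quartile it was -5.86. Hsd3b5 was the only one of the 31 to keep its call under all 18 alternatives, with adjusted p between 9.55e-06 and 0.0215.

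Hsd3b2, expressed in mouse liver and kidney, read 8.38 and 9.25 in the controls and 5.27, 4.15 and 3.67 in the tumours. The groups did not overlap, and tumours 2 and 3 were under the lower quartiles of the arrays. It fell by 4.45 (95% confidence interval -5.69 to -3.22; limma adjusted p = 0.00653). Hsd3b3, the other form of liver and kidney, read 11.11 and 11.29 against 8.46, 7.13 and 6.72. It fell by 3.77 (95% confidence interval -4.98 to -2.56; limma adjusted p = 0.0102), and all 3 tumours still stood well above the lower quartiles. The order of the tumours was the same for both genes, with tumour 1 highest and tumour 3 lowest.

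Hsd3b1, the form of the mouse gonads and adrenal gland, and Hsd3b6 were dim in both groups. Hsd3b1 read 3.35 and 2.73 in the controls and 2.90 to 3.16 in the tumours, and its sign turned once the array medians were made equal (0.03 against -0.07). Hsd3b6 read 3.88 and 3.97 against 3.43 to 3.63 and did not pass (-0.39, adjusted p = 0.116). The 2 further probe sets, named for Gm10681, Hsd3b5 and Hsd3b4 together, lay outside the 31 genes. They held identical values, 6.13 and 5.71 in the controls and 4.79, 4.80 and 4.57 in the tumours. Tested together with the 19938 genes and the other probe sets of several symbols, their log2 difference was -1.1985 (limma adjusted p = 0.0137). Values of the 3β-HSD genes, and of the AKR1C genes below, are uncertain to the extent that near-identical family members hybridise to the same probes.

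The 3 fallen genes are next to each other on chromosome 3. In the RefSeq gene table of GRCm38.p6 the protein-coding order is Hsd3b5, Hsd3b2, Hsd3b3, Hsd3b6 and Hsd3b1, with no other protein-coding gene between them. The log2 differences along that order were -6.01, -4.45, -3.77, -0.39 and 0.03. The promoter windows of Hsd3b5 and Hsd3b3, between which Hsd3b2 lies, are shown because they share the longest run among the 3 fallen genes. They are RefSeq's (GRCm38.p6, 250 bases before to 50 after the gene start, minus strand, at chr3:98645485-98645784 and chr3:98763079-98763378). Capitals mark the longest run of bases that both share, 24 bases. Hsd3b3 has 2 windows in that table, and the one at these coordinates is printed.
Hsd3b5: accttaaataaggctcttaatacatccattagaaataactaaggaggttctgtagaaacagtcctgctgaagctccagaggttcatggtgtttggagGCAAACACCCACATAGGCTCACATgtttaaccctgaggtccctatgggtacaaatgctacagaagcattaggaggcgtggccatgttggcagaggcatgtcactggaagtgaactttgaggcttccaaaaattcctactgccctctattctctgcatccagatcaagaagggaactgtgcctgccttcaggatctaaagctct
Hsd3b3: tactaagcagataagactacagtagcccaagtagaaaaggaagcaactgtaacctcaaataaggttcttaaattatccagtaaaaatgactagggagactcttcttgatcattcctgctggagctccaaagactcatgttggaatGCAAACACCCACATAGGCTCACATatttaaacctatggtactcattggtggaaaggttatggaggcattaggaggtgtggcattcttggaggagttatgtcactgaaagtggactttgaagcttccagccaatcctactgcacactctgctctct
The windows of Hsd3b2 and Hsd3b5 shared a run of 19 bases, and those of Hsd3b2 and Hsd3b3 one of 16, while the median over 45 pairs within families was 8. All 3 windows lacked the antioxidant response core TGACNNNGC, the STAT core TTCNNNGAA and the nuclear receptor hexamer AGGTCA, searched on both strands. The window of Hsd3b1 held 1 match to TTCNNNGAA.

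**Figure D2:**
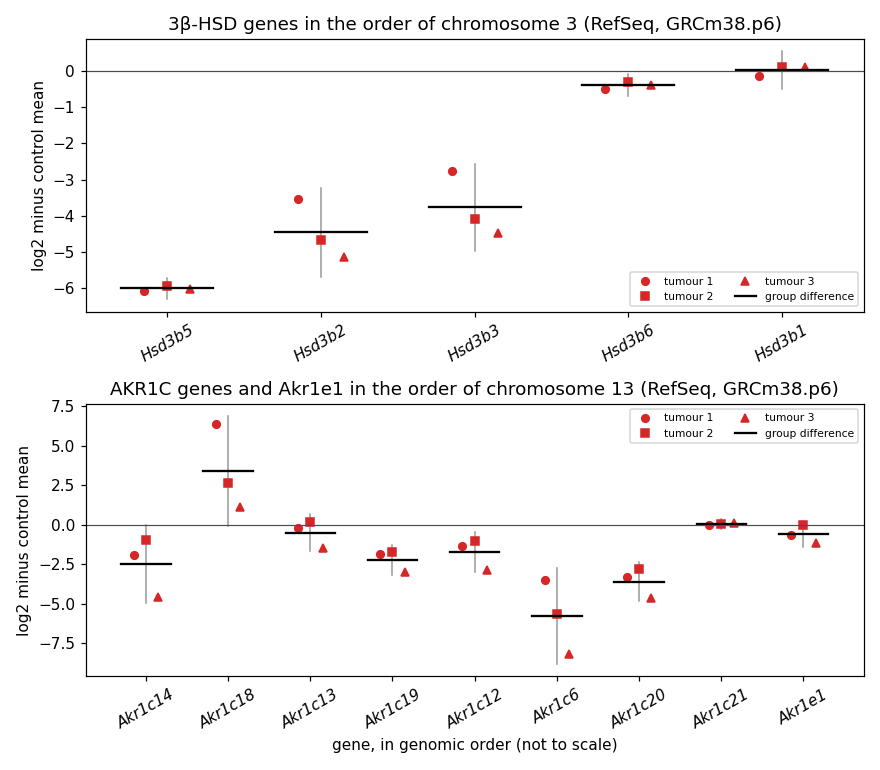
Each tumour's log2 value minus the control mean (vertical axis, symbols), the group difference (black bar) and its 95% confidence interval (grey line) for the genes of the chromosome 3 and chromosome 13 clusters, in genomic order and not to scale. Hsd3b5, Hsd3b2 and Hsd3b3 lie between -2.75 and -6.06 in every tumour. In the AKR1C cluster Akr1c18 is above 0 in every tumour and its neighbour Akr1c14 below 0. Its other neighbour, Akr1c13, is above 0 in tumour 2 (0.19) and below 0 in tumours 1 and 3.

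Among 9 AKR1C genes, 3 fell, 0 rose and 6 did not pass, with a median difference of -1.74. Akr1c6, which encodes the liver's 17β-HSD type 5 and reduces androstenedione to testosterone, had the highest control values of the 31 genes, 12.20 and 12.31. It read 8.79, 6.59 and 4.11 in tumours 1, 2 and 3, so that all tumours were below the controls but lay 4.68 log2 units apart. Tumour 3 was under the lower quartile of its array, so its value was not shown to be above background and this spread is uncertain. The difference was -5.76 (SE 1.24, 95% confidence interval -8.80 to -2.72; limma adjusted p = 0.04). This call was lost without tumour 2 (adjusted p = 0.0985), with a variance trend and robust settings (adjusted p = 0.0619) and with treat against a 1.2-fold change (adjusted p = 0.0589).

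Akr1c20 read 9.74 and 9.39 in the controls and 6.24, 6.75 and 4.94 in the tumours. It fell by 3.59 (95% confidence interval -4.85 to -2.33; limma adjusted p = 0.0128). Akr1c19 read 8.94 and 9.31 against 7.25, 7.38 and 6.13 and fell by 2.21 (95% confidence interval -3.16 to -1.25; limma adjusted p = 0.0233). In both genes the groups did not overlap and tumour 3 was lowest. Both are carbonyl reductases of the same gene cluster as Akr1c6.

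Akr1c14, a 3α-hydroxysteroid dehydrogenase that inactivates dihydrotestosterone, read 10.93 and 11.13 in the controls and 9.12, 10.10 and 6.45 in the tumours. All tumours were lower, tumour 3 most, and the test was not passed (difference -2.47, adjusted p = 0.196). It passed when tumour 3 was left out, at a smaller difference of -1.42 (adjusted p = 0.0404). Leaving out tumour 1 or tumour 2 gave no pass (limma adjusted p = 0.218 and 0.104). Akr1c12 read 8.61 and 8.83 against 7.36, 7.70 and 5.89 (difference -1.74, adjusted p = 0.0969). It too passed without tumour 3 (-1.19, adjusted p = 0.0103), but Akr1c12 did not pass without tumour 1 or tumour 2 (limma adjusted p = 0.112 and 0.0816). Akr1c13, its close relative, read 8.80 and 9.15 against 8.78, 9.17 and 7.49, so that tumours 1 and 2 overlapped with the controls (difference -0.50, adjusted p = 0.609). Without tumour 3 its difference was -0.0016. Whether Akr1c12 and Akr1c13 differed in their change was not tested.

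The promoter windows of Akr1c12 and Akr1c13 (RefSeq, GRCm38.p6, chr13:4279350-4279649 on the minus strand and chr13:4190937-4191236 on the plus strand) are printed to show how alike these 2 genes are. They were identical in 93.4% of aligned columns with a longest shared run of 75 bases, where the other 44 pairs compared within families reached 46.1% to 59.8%. Capitals mark the bases, 16 in each window, that differ from the other window in the alignment or have no partner there.
Akr1c12: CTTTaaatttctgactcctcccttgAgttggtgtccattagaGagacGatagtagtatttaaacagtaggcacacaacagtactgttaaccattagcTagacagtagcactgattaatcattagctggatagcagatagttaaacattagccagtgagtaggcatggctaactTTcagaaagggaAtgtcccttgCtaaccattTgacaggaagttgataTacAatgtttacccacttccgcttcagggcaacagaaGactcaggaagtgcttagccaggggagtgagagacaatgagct
Akr1c13: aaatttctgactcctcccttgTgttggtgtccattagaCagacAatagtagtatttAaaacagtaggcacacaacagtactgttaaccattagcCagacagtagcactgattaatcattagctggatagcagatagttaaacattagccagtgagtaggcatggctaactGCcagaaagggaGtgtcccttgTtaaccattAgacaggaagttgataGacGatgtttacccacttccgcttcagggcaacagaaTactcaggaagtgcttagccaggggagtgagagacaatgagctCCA
Neither window held a match to the 3 motifs.

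Akr1c18 differed in the other direction. It encodes the 20α-hydroxysteroid dehydrogenase that ends the action of progesterone in the ovary, and it was dim in both controls, at 3.22 and 3.31. It read 9.63, 5.91 and 4.41 in tumours 1, 2 and 3, all above the controls and 5.22 log2 units apart. The difference of 3.39 did not pass (95% confidence interval -0.10 to 6.87; limma adjusted p = 0.211), and it was 2.31 with the controls set to the lower quartile. Without tumour 1 it was 1.897 (adjusted p = 0.0765) and without tumour 3 it was 4.51 (adjusted p = 0.0518). In the same tumour 1, the steroid hydroxylase gene Cyp17a1 read 10.12, against 4.70 and 4.38 in tumours 2 and 3 and 6.25 and 5.61 in the controls. Cyp21a1, the steroid 21-hydroxylase, was highest there too, at 9.75 against 8.67 and 6.67, with controls of 5.82 and 7.23. Cyp17a1 and Cyp21a1 did not pass the test (adjusted p = 0.913 and 0.287) and were picked with their values known.

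Akr1c21, a 17α-hydroxysteroid dehydrogenase, and Akr1cl were dim in both groups, with values between 3.13 and 3.39 on all arrays and differences of 0.05 and -0.05. Along chromosome 13 the gene order is Akr1c14, Akr1c18, Akr1c13, Akr1c19, Akr1c12, Akr1c6, Akr1c20, Akr1c21 and Akr1e1. The log2 differences in that order were -2.47, 3.39, -0.50, -2.21, -1.74, -5.76, -3.59, 0.05 and -0.59. Akr1c18, with the highest difference of the 31 genes, thus sits between 2 genes with negative differences.

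Tumour 3 was the lowest of the tumours in 7 of 9 AKR1C genes and in 7 of the 8 fallen genes, against 15 of all 31 and 28.4% of all genes. The 3 tumours differed by 2 log2 units or more in 6 of the 31 genes (19.4%), namely Akr1c18, Hsd17b6, Akr1c6, Akr1c14, Akr1b8 and Hsd11b1, and in 1.59% of all genes. The median range among tumours was 0.96 over the 31 genes and 0.33 over all genes, while the median gap between the 2 controls was 0.18 and 0.14. A range of 3 values tends to exceed a gap of 2 at equal spread, so tumour and control values are not like measures. Tumour 3 also had the highest lymphocyte list, with a median of 3.15 above the control mean against 0.71 in tumours 1 and 2. Cd79a of that list was lowest there. The macrophage median was highest too (2.59 against 2.44 and 1.82). Tumour 3 had the lowest hepatocyte (-0.34 against -0.15 and -0.10) and endothelial medians (-0.44 against 1.53 and 0.695). The same held for the stellate (0.22 against 1.21 and 0.60) and cholangiocyte medians (0.39 against 0.68 and 0.58). The part of these differences in its low values was not tested.

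The glucocorticoid enzymes did not pass the test. Hsd11b1, which regenerates active corticosterone in the liver, read 9.79 and 9.99 in the controls and 8.42, 8.52 and 5.81 in the tumours. All 3 tumours were below both controls, and tumour 3 was far below the others (difference -2.31, 95% confidence interval -4.31 to -0.30; limma adjusted p = 0.147). Without tumour 3 the difference was -1.42 and passed (adjusted p = 0.00343). It did not pass without tumour 1 or without tumour 2 (limma adjusted p = 0.121 and 0.138). Hsd11b2, the inactivating enzyme of the kidney, stood between 5.55 and 5.97 on all arrays (difference -0.24, adjusted p = 0.364). H6pd, which supplies NADPH to the Hsd11b1 enzyme, read 9.74 and 9.76 against 10.48, 10.56 and 10.08 and did not pass (0.62, adjusted p = 0.0851).

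None of the 4 17β-HSD genes of sex steroid metabolism passed. Hsd17b6, an enzyme that oxidises androstanediols, had the largest difference among genes that missed the threshold. It read 11.28 and 11.50 in the controls and 9.55, 4.47 and 6.09 in the tumours, with all tumours lower and tumour 2 lowest (difference -4.69, 95% confidence interval -8.06 to -1.31; limma adjusted p = 0.092). Without tumour 1 it passed, at -6.12 (adjusted p = 0.00542), but not without tumour 2 or tumour 3 (limma adjusted p = 0.145 and 0.128). Hsd17b2, which converts oestradiol and testosterone to their weaker ketones, read 10.92 and 10.75 against 9.14, 10.10 and 9.82. It lay just outside the threshold (difference -1.15, adjusted p = 0.0591). It was inside once the array medians were made equal (adjusted p = 0.0455), with dim genes left out (adjusted p = 0.0493) and without tumour 1 (adjusted p = 0.0379). It stayed outside without tumour 2 or tumour 3 (limma adjusted p = 0.0531 and 0.059). Hsd17b1, the oestradiol-forming enzyme, stood between 5.12 and 5.49 on all arrays and Hsd17b3, which forms testosterone in the testis, between 3.60 and 3.90. Srd5a3, a polyprenol reductase of glycan synthesis related to the 5α-reductases, read 7.38 and 7.30 in the controls and 7.85, 7.66 and 7.61 in the tumours, a difference of 0.37 that did not pass (adjusted p = 0.156).

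**Figure D3:**
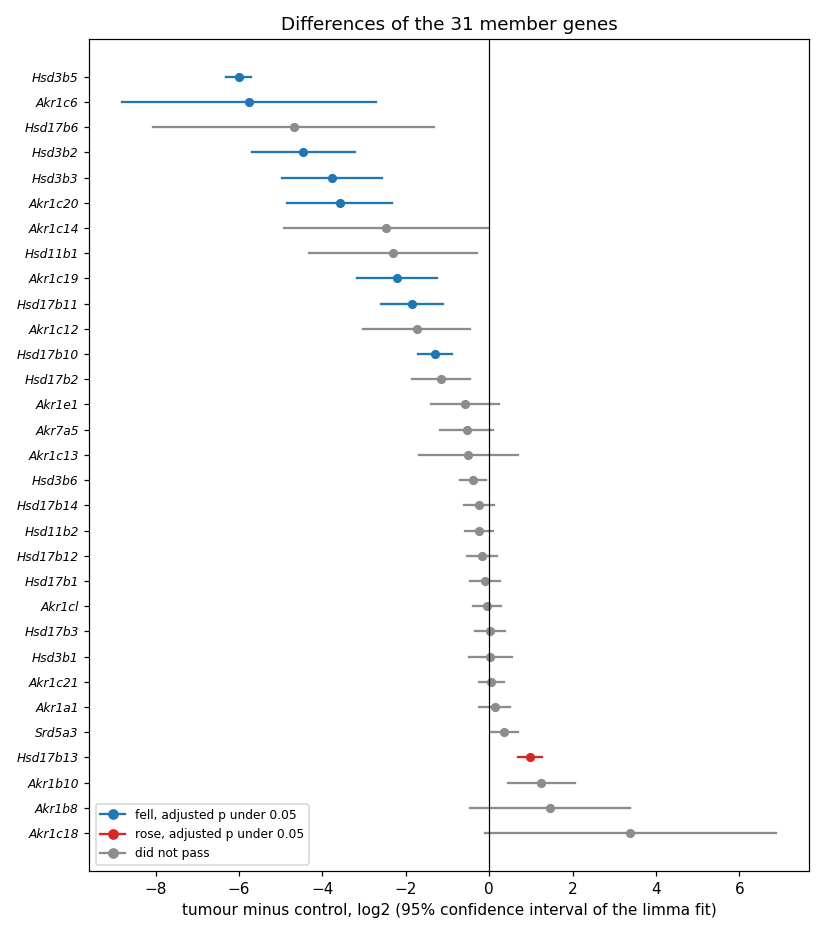
Tumour minus control difference of each of the 31 genes on the log2 scale (horizontal axis), with the 95% confidence interval of the limma fit; colours mark the 8 genes that fell, the 1 that rose and the 22 that did not pass. Hsd3b5 has a narrow interval at -6.01, with all its tumour values dim, whereas Akr1c6, Hsd17b6 and Akr1c18 have the widest ones.

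Among the 5 genes with a 17β-HSD name whose products act on lipids or other substrates, 2 fell, 1 rose and 2 did not pass. Hsd17b13, a protein of hepatocyte lipid droplets, was the only one of the 31 genes that rose. It read 10.90 and 10.85 in the controls and 11.84, 11.80 and 11.93 in the tumours, with little spread in either group (difference 0.98, 95% confidence interval 0.69 to 1.27; limma adjusted p = 0.00834). Hsd17b11, its relative on lipid droplets, read 10.66 and 10.88 against 9.46, 8.87 and 8.43 and fell by 1.85 (95% confidence interval -2.59 to -1.11; limma adjusted p = 0.0187), a call lost without tumour 2 (adjusted p = 0.0574). The 2 genes moved in opposite directions in all 3 tumours, and they are neighbours on chromosome 5 in the RefSeq gene table.

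The promoter windows of these neighbours (RefSeq, GRCm38.p6, both on the minus strand, chr5:104021747-104022046 and chr5:103977339-103977638) are printed for comparison. Capitals mark matches to the 3 motifs, of which Hsd17b13 held 2, an AGGTCA match on the opposite strand and a TGACNNNGC match, and Hsd17b11 held 0.
Hsd17b11: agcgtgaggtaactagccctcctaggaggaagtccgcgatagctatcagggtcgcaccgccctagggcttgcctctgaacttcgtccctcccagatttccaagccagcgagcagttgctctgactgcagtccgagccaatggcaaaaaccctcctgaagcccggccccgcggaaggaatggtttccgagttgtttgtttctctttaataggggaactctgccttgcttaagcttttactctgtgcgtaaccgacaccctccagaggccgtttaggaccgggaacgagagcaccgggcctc
Hsd17b13: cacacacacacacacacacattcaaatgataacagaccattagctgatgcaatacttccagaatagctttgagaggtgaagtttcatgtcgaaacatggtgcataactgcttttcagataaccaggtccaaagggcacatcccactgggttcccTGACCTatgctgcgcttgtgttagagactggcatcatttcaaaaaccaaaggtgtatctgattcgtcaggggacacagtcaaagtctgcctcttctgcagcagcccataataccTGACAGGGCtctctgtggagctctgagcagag
Of the 31 genes, 26 had a window in the RefSeq table. Akr1c20, Hsd11b2, Hsd17b1, Hsd17b14 and Hsd17b2 had none. TGACNNNGC was found for 6 of the 26 genes (23.1%, against 12.4% of all 32851 windows), in Akr1c19, Akr1cl, Hsd11b1, Hsd17b12, Hsd17b13 and Srd5a3. AGGTCA was found for 4 (15.4%, against 16.3%) and TTCNNNGAA for 2 (7.69%, against 8.30%). Among the 7 fallen genes with a window, Akr1c19 held a match to TGACNNNGC and to TTCNNNGAA, and the other 6 held none of the 3 motifs.

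Hsd17b10, a mitochondrial enzyme of isoleucine breakdown that is also a subunit of the mitochondrial tRNA-processing enzyme, read 11.16 and 10.96 in the controls and 9.68, 10.01 and 9.61 in the tumours. It fell by 1.30 (95% confidence interval -1.71 to -0.88; limma adjusted p = 0.01), with similar values in the 3 tumours. Hsd17b12, the ketoacyl-CoA reductase of long-chain fatty acid elongation, read 10.56 and 10.44 against 10.15, 10.44 and 10.39, and the groups overlapped (difference -0.17, 95% confidence interval -0.52 to 0.18; adjusted p = 0.541). Hsd17b14 stood between 4.80 and 5.23 on all arrays.

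Both AKR1B genes were higher in all 3 tumours, and neither passed the test. Akr1b10 read 4.42 and 4.35 in the controls and 5.26, 5.33 and 6.30 in the tumours (difference 1.25, 95% confidence interval 0.44 to 2.05; limma adjusted p = 0.068). Without tumour 3, its highest array, the difference was 0.91 and passed (adjusted p = 0.0091). It did not pass without tumour 1 or without tumour 2 (limma adjusted p = 0.0606 and 0.0981). Akr1b8, an aldehyde reductase gene induced by fibroblast growth factor, read 5.16 and 5.07 against 6.31, 5.25 and 8.14. Tumour 2 was only just above the controls and tumour 3 far above (difference 1.45, adjusted p = 0.326). The difference was 0.66 without tumour 3 and 2.11 without tumour 2. Tumour 3, highest in both AKR1B genes, was the lowest of the tumours in most AKR1C genes.

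None of the 3 remaining aldo-keto reductases passed. Akr1a1, the aldehyde reductase that mice use in vitamin C synthesis, read 11.36 and 11.39 in the controls and 11.36, 11.45 and 11.71 in the tumours (difference 0.13, 95% confidence interval -0.24 to 0.49; adjusted p = 0.675). Akr7a5, which reduces aflatoxin dialdehyde and succinic semialdehyde, read 9.54 and 9.52 against 8.79, 9.498 and 8.69 (difference -0.54, adjusted p = 0.27). It passed without tumour 2, the tumour nearest the controls (-0.79, adjusted p = 0.0439). Without tumour 1 or tumour 3 it did not (limma adjusted p = 0.432 and 0.382). Akr1e1, the reductase of 1,5-anhydrofructose, read 8.42 and 8.61 against 7.89, 8.52 and 7.36 (difference -0.59, adjusted p = 0.349), with tumour 2 inside the control range.

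Genes that work beside these enzymes were listed for comparison. Of 17 measured genes of steroid hydroxylation, transport and reception, 5 fell and 0 rose, against 4.96% and 5.6% of all genes. Cyp7b1, which hydroxylates oxysterols and dehydroepiandrosterone, read 10.58 and 11.01 in the controls and 7.12, 7.74 and 7.13 in the tumours (difference -3.47, limma adjusted p = 0.002). The receptor genes Nr3c2 (mineralocorticoid receptor, -1.20), Nr3c1 (glucocorticoid receptor, -0.72) and Esr1 (oestrogen receptor, -1.68) fell as well, and the fifth was Cyb5a (-0.56). Of 11 glucocorticoid-responsive genes, 4 rose (Lcn2, Igfbp1, Fkbp5 and Mt2) and 0 fell, against 5.6% and 4.96% of all genes. Some of the 11 also respond to other signals. Fkbp5 rose by 1.29. Those that did not pass were Pck1 (-2.41), Tsc22d3 (-1.03), Per1 (-0.87), Tat (-0.25), Sgk1 (0.38), Zbtb16 (0.66) and Dusp1 (0.79).

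Of 20 other carbonyl-handling enzymes and relatives, 2 rose and 8 fell, against 5.6% and 4.96% of all genes. The carbonyl reductase genes Cbr3 and Cbr1 rose, Cbr3 from 4.58 and 4.82 to 8.38, 10.01 and 8.53 and Cbr1 by 1.82. Dcxr, which reduces xylulose, fell by 1.96, Hagh by 1.66 and Glo1 by 1.28, the last 2 being the enzymes of methylglyoxal clearance. The 4 steroid genes set apart by name had differences of -1.70 (Hsd3b7), -0.79 (Hsd17b7), -0.62 (Hsd17b4) and -0.63 (Akr1d1), and the first 2 of them fell. Without control 1 and without control 2, Cyp7b1, Cbr1 and Lcn2 kept their calls among the genes called in these lists that were refitted, while Nr3c1, Nr3c2, Esr1, Cbr3, Dcxr, Hagh, Igfbp1, Fkbp5, Mt2, Hsd3b7 and Hsd17b7 lost theirs. Beside these lists, 6 of 8 macrophage markers rose. The median difference of the 6 hepatocyte markers was -0.22, with Alb at -0.12.

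**Figure D4:**
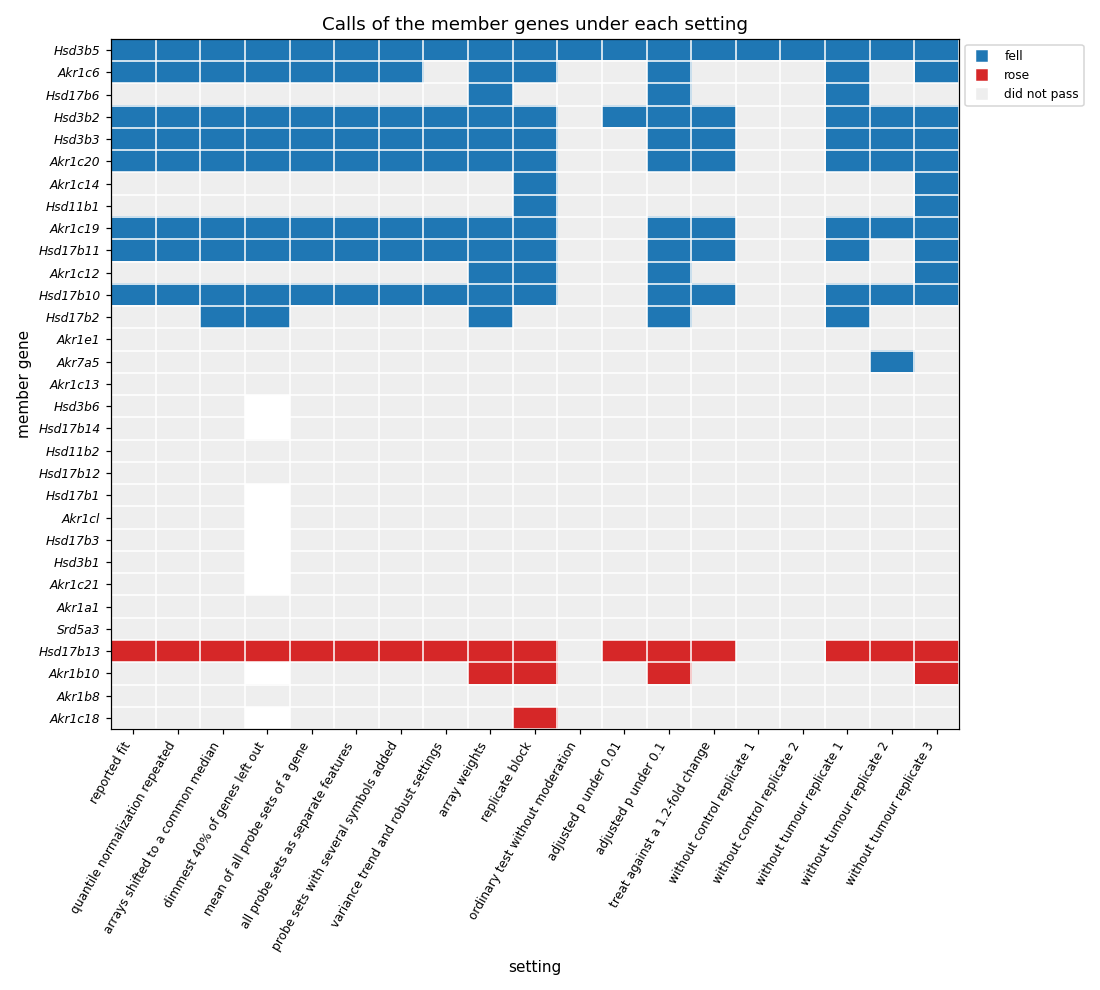
Calls of the 31 genes (rows) in the reported fit and under 18 alternatives (columns), blue for fell, red for rose, grey for not passed and white for genes left out as dim. Hsd3b5 is blue in every column, and without control 1 or control 2 it is the only gene called.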

How the data were processed

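The authors deposited 1 table with a log2 expression value for each of 28853 probe sets on 5 arrays. The submitters' processing notes name GCOS and RMA, without version or role. RMA normalises arrays by quantiles and compresses low values. A genome build was not given in the sources used here. Samples were grouped by their titles, and 0 columns belonged to other samples.

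Probe sets were named through the platform's probe table: 21789 had 1 symbol, 1621 several and 5443 none. For 999 genes with several probe sets, the brightest on average was kept. The resulting 19938 genes were not filtered for dim values. In limma 3.58.1 (R 4.3.3), lmFit and eBayes estimated tumour minus control over all genes, with no covariate and with 3 residual and 2.98 prior degrees of freedom. Two-sided p-values were adjusted by Benjamini-Hochberg over all genes, with a threshold of 0.05. Arrays of a group are biological replicates, per the labels. On simulated arrays, 200 of 19938 genes were changed in each of 5 runs. The fit recovered 1.2% of changes of 0.5 log2 units and 50.4% of those of 1. It recovered 98% of changes of 2 and 100% of those of 4. Unchanged genes made up 8.05% of its calls. In the data 10.6% of all genes were called, a larger share than the 200 changed here. Adjusted p depends on that share, so the simulated rates hold for the simulated share. The simulation used independent normal noise with 1 spread per gene for both groups. In the data the median range over all genes was 0.33 among tumours and 0.14 between controls. A range of 3 arrays tends to exceed one of 2 even at equal spread. The rates of the simulation do not carry over to genes with widely spread tumours, such as Hsd17b6 (-4.69, not passed).

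The members, gene lists and role groups were chosen with earlier results of these data known. All 31 members were described, and from other lists up to 4 members with the smallest p, unless stated otherwise. Genes named beyond that rule (Cyb5a, H6pd, Tsc22d3, Tat, Pck1, Per1, Sgk1, Zbtb16, Dusp1, Glo1) serve to complete a count or a route, and were picked with their values known. Promoter windows are RefSeq's, build GRCm38.p6. Protein sequences were not used here, so no protein comparison was made. Tables were joined in pandas 2.3.3 (Python 3.11.15), and figures were drawn with matplotlib 3.10.9. The 18 alternatives are those of the closing section.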

Additional observations from a re-analysis of the deposited data

How the results depend on the processing

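The count of fallen genes among the 31 stayed within 1.5 times of 8 with 3 kinds of exception. These were an ordinary test without moderation (1), a threshold of 0.01 (2) and leaving out either control. Without tumour 1, 2 and 3 the count was 10, 7 and 11. Risen genes numbered 2 with array weights, 3 with the replicate block, 0 with the ordinary test and 2 at a threshold of 0.1, and 0 to 2 with an array left out. Over all genes, 2106 calls became 3252 with array weights, 18 with the ordinary test, 505 and 3326 at thresholds of 0.01 and 0.1, 1153 with treat against a 1.2-fold change, and 108 to 2719 with an array left out (129 and 108 without control 1 and control 2, 1266 without tumour 2). The median difference of the 31 genes moved from -0.50 to -1.52 when the dimmest 40% of genes were left out, which removed 9 of them by construction. Hdac3 (-1.62) missed the threshold with the ordinary test (adjusted p = 0.0704), and ranged from -1.71 to -1.54 with an array left out.

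Same-numbered arrays come from different mice, and their deviations from the group means correlated at 0.0039 and -0.0129. The deviations of the controls from their own mean mirror each other by construction, so these correlations are not separate checks. They gave no sign of pairing by number, but they cannot exclude a factor shared by same-numbered arrays. The reported fit treats the samples as unpaired. The replicate block calls 11 fallen genes, and it leaves tumour 3, alone in its block, without weight on the differences.

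Signs turned only where the difference was small: with arrays shifted to a common median for Akr1c21 (-0.0494), Hsd17b3 (-0.0809) and Hsd3b1 (-0.0713), with the replicate block for Hsd3b1 (-0.0197), and with an array left out for Akr1cl (range -0.1357 to 0.0398), Hsd17b1 (-0.2503 to 0.0437), Hsd17b3 (-0.1087 to 0.1431) and Hsd3b1 (-0.2791 to 0.3326). Quantile normalisation repeated, the mean of all probe sets, all probe sets as separate features and added probe sets of several symbols changed no call of the 31. A fit with a single control borrows its spread from the tumours. Depth in reads has no counterpart here, and the 5 genes dim in both groups were not shown to be above background.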
